A study of Mus musculus with 6 samples.

Results

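The clustered protocadherin locus was examined as a window of 940 kb on mouse chromosome 18, from 37080000 to 38020000 in the mm9 build. This window holds the Pcdha, Pcdhb and Pcdhg gene clusters in that order. Its members are the accessible regions called there. Peaks of 6 ATAC-seq libraries that overlapped the window were merged wherever they touched, which gave 21 regions from 73 peaks, out of 68364 merged regions on chromosomes 1 to 19. The rule used position only and no measured difference between the groups, although earlier results of these data were known when it was chosen.

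ATAC-seq marks open DNA by the insertion of sequencing adapters by the transposase Tn5. The libraries came from the microdissected dentate gyrus, a hippocampal region rich in granule neurons, of mice 8 weeks old that had received adeno-associated virus (AAV). The virus expressed the fluorescent protein EYFP in 3 control animals, and cFos, an activity-induced subunit of the transcription factor AP-1, in the other 3. All animals were therefore infected, with 1 library from each animal. The promoter in the virus and the share of cells infected were not given in the sources used here. The strain is given as C57BL/6 for the first sample and with a different final number for each later one, so strain was not used. The comparison asks which sites are accessible when cFos is forced on, within a study of neuronal activity and chromatin in the adult brain. The lists held between 23088 and 42853 peaks on these chromosomes, with cFos replicate 2 the shortest and EYFP replicate 2 the longest. Read depth is unknown, so the lack of a call does not show that a site was closed in that animal. In bulk tissue, fewer open cells and less opening per cell cannot be told apart.

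Clustered protocadherins are cell surface proteins of the cadherin superfamily, and the combination a neuron makes gives it a molecular identity used in self-recognition of its branches. In the Pcdha and Pcdhg clusters, each variable first exon has a promoter of its own and is spliced to constant exons shared by its cluster, while Pcdhb genes consist of a single coding exon. Most of these promoters are chosen stochastically in each neuron, with the help of CTCF, cohesin and distal enhancers, whereas the C-type genes at the ends of Pcdha and Pcdhg are expressed more broadly. By the RefSeq table of GRCm38.p6, used here for names and order only, the array holds 58 protocadherin genes. These are 14 Pcdha genes (Pcdha1 to Pcdha12, then Pcdhac1 and Pcdhac2), 22 Pcdhb genes (Pcdhb1 to Pcdhb22) and 22 Pcdhg genes, which end with Pcdhgc3, Pcdhgc4 and Pcdhgc5. Of the last, Pcdhgb8 is a pseudogene. Between Pcdhb22 and Pcdhga1 the table places Slc25a2, a mitochondrial amino acid carrier, and Taf7, a subunit of the general transcription factor TFIID. The formin gene Diaph1 follows the array. Annotation of mm9 was not used, so regions are described by position and none is assigned to a gene or exon, and the tissue label was not checked against marker genes.

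The regions lay in a pair of groups at the ends of the window, with a long stretch between them in which no library called a peak. No region was called from 37378259 to 37803379, a gap of 425 kb or 45.2% of the window. The first 7 regions lay before it, from 37112198 to 37378258, and the other 14 after it, from 37803380 to 38012590. Every library had its longest peak-free stretch of the window there, from 425.1 kb in EYFP replicate 2 to 425.5 kb in cFos replicate 3. The stretch therefore had the same position in both groups. On chromosomes 1 to 19, 197 of 68345 gaps between neighbouring merged regions were at least as long, or 0.288%, and chromosome 18 held 2 of them. These gaps took up 6.23% of the span of chromosomes 1 to 19. Between neighbouring regions called in all 6 libraries, 12.4% of gaps were at least as long. Within single lists, which have fewer peaks, between 0.971% and 3.67% of gaps were at least as long as the library's own gap. The longest gap in the 940 kb before the window was 88.9 kb, and in the 940 kb after it 129.96 kb. The gap is described and was not tested, because it was singled out after its length was seen.

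**Figure D1:**
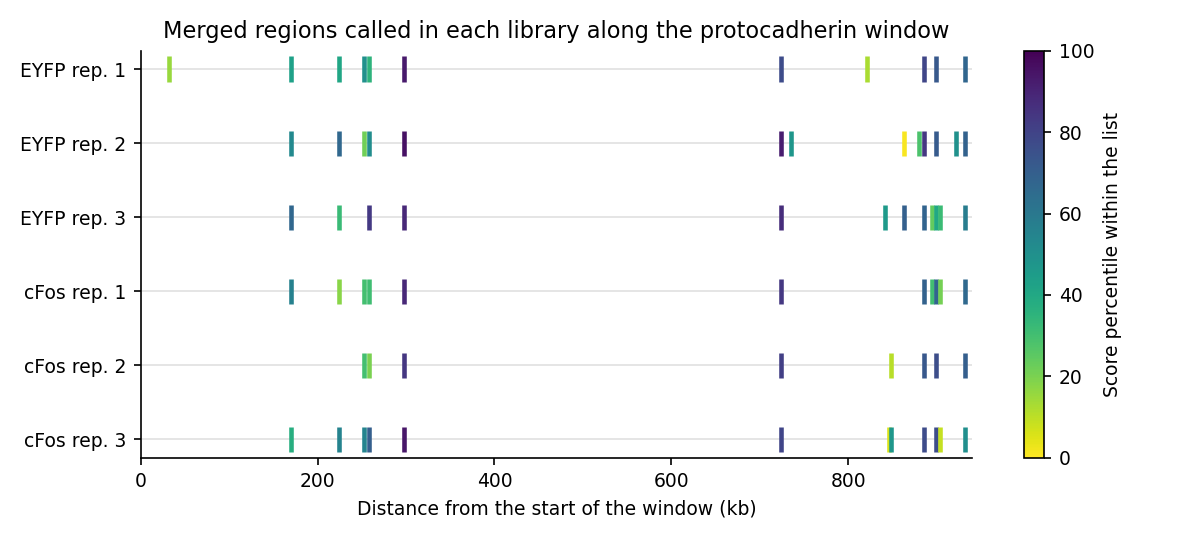
Each row is 1 library and each tick marks a called merged region at its distance in kb from the start of the window (tick thickness is not to scale), coloured by the score percentile within that library's list. All 6 rows are empty between the regions 297 kb and 723 kb from the start.

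Spacing was uneven elsewhere too. In 10 bins of 94 kb, the last bin held 9 regions, bins 5 to 7 held none, and the others held 1 to 4. Of all 94 kb tiles on chromosomes 1 to 19, 18.6% held no region and 1.82% held 9 or more, with a median of 2. The median gap between neighbouring regions was 12.6 kb in the window and 17.7 kb on chromosomes 1 to 19. Without EYFP replicate 2, which alone supplied 3 of the regions, it was 19.2 kb in the window. That value cannot be set against the 17.7 kb, which used all 6 libraries.

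The window held fewer regions than its surroundings. Its density was 22.3 merged regions per Mb, against 28.3 per Mb on chromosomes 1 to 19 and 35.9 per Mb on chromosome 18. Stretches of equal length before and after it held 40 and 47 regions, of which all 6 libraries called 15 and 12. Among 2557 tiles of 940 kb, the median count was 26, with quartiles of 16 and 36, and 34.5% of tiles held fewer than 21. Of regions called in all 6 libraries, the window held 5 against a tile median of 4, and 57.4% of tiles held fewer. The window thus lay within the middle range of the genome and below both of its neighbours. Leaving the long gap out, the remaining 514.9 kb held 40.8 regions per Mb. Removing a gap chosen for its length can only raise the density, and the value for chromosomes 1 to 19 keeps its own long gaps. With only peaks above the pooled median score of 93.1, the ratio of window to genome density rose from 0.789 to 1.02. On lists of equal length the ratio was 0.938. In a window 50 kb narrower on each side the ratio was 0.630, and in one 50 kb wider it was 0.883. These densities are descriptions with no test.

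**Figure D2:**
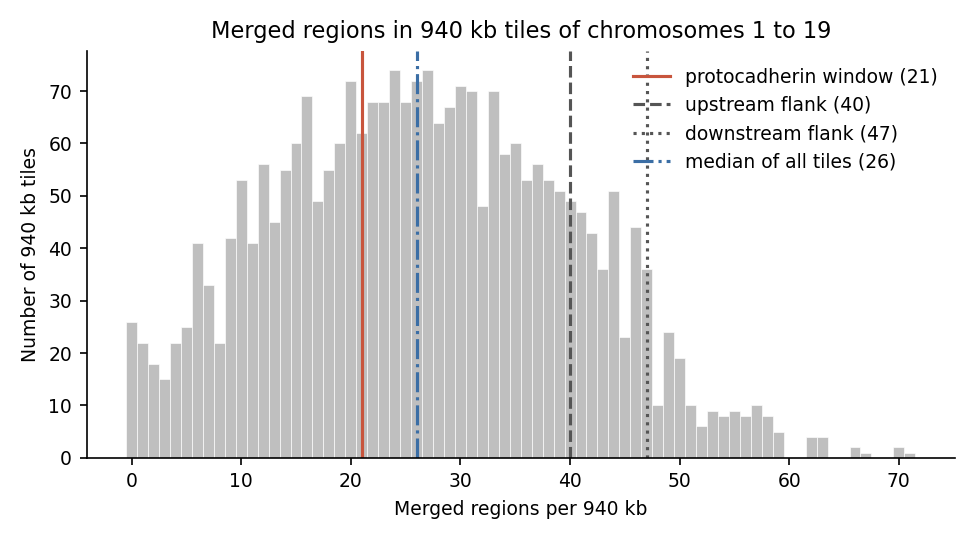
Grey bars count the 940 kb tiles of chromosomes 1 to 19 by their number of merged regions, and vertical lines mark the protocadherin window, its flanks and the median tile. The window (21 regions) lies under the median (26) and well under its upstream (40) and downstream (47) flanks.

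Most peaks of the window fell in a small set of recurrent regions. Of the 21 regions, 5 were called in all 6 libraries and 4 in 5 libraries, and these 9 regions held 56 of the 73 peaks (76.7%). They made up 42.9% of the regions, against 23.5% on chromosomes 1 to 19, where such regions held 50.6% of the peaks. At the other end, 8 regions (38.1%) were called in a single library, against 43.7% on chromosomes 1 to 19, with 3 called in 2 libraries and 1 in 3 libraries. The share called in all 6 libraries was 23.8% (exact 95% binomial interval 8.22 to 47.2%, counting error only), against 16.6% of all merged regions on chromosomes 1 to 19. The background lies inside that interval. Without cFos replicate 2 the share called in all remaining libraries was 40%, against 20.5%. With calls limited to libraries whose peaks spanned 50% or more of a region, the share fell to 9.52%, or 2 of 21, against 8.59%. Regions called in all 6 libraries had a median width of 1268 bp in the window and 1127 bp on chromosomes 1 to 19. Over all regions the medians were 709 bp and 518 bp. These mix regions with different numbers of callers, and on chromosomes 1 to 19 width rose with that number. For regions called in 1, 2 and 3 libraries the medians were 402.5, 885 and 1472 bp in the window. On chromosomes 1 to 19 they were 367, 515 and 595 bp. For regions called in 5 libraries the window was narrower, at 678.5 against 770.5 bp. Merged regions covered 1.88% of the window and 1.83% of the span of chromosomes 1 to 19.

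**Figure D3:**
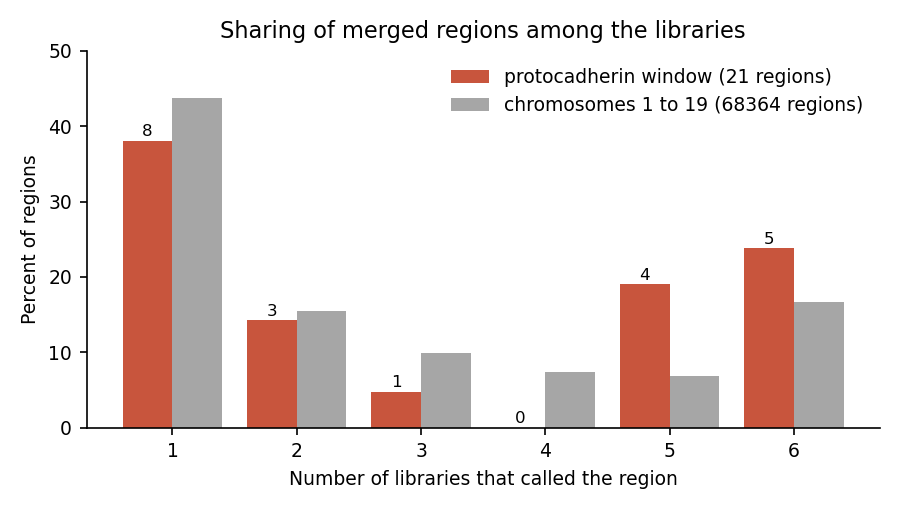
Bars give the percent of merged regions called in 1 to 6 libraries, in the window and on chromosomes 1 to 19, with the number of window regions above each bar. In the window, 8 regions were called in 1 library, 0 in 4 libraries and 5 in all 6.

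The deposited score of a peak is the authors' value, and its meaning was not given in the sources used here. It was therefore ranked within each library's own list, so that percentile 100 is the highest score of that list. The strongest region was number 7 of the 21, from 37376702 to 37378258, the last one before the gap. Its scores were 353.6, 535.5 and 303.9 in EYFP replicates 1 to 3, and 268.3, 208.4 and 409.1 in cFos replicates 1 to 3. EYFP replicate 2 was highest and cFos replicate 2 lowest, and the groups overlapped. The percentiles were 92.7 ± 3.37 in EYFP and 88.9 ± 4.83 in cFos libraries (SD, n = 3 each). The score of EYFP replicate 2 was the highest single score in the window.

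This region had a repeated inner structure. In 5 libraries it consisted of 2 peaks, separated by 17 to 362 bp, and the second scored between 3.29 and 4.48 times as high as the first. The first peak scored from 62.4 to 108.2 and the second from 208.4 to 409.1. Only EYFP replicate 2 had a single peak across the region, 1428 bp wide. The weaker peak on the left and the stronger one on the right were thus called separately in 2 EYFP and 3 cFos libraries.

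Region 8, from 37803380 to 37804332, was the first after the gap and the second strongest of the window. It scored 174.95, 406.1 and 282.1 in EYFP replicates 1 to 3, and 212.1, 186.2 and 195.9 in cFos replicates 1 to 3. EYFP replicates 2 and 3 lay above every cFos library and EYFP replicate 1 below all of them. Its percentiles were 85.5 ± 7.54 in EYFP and 81.5 ± 2.10 in cFos libraries (SD, n = 3 each). The gap was therefore bordered on each side by the regions with the highest mean percentiles of the window, 90.8 before it and 83.5 after it.

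The remaining regions called in all 6 libraries were numbers 16, 18 and 21, which lay in the last 94 kb of the window. Region 16, from 37965495 to 37966762, had scores of 188.3, 274.7 and 138.2 in EYFP replicates 1 to 3 and 130.9, 141.3 and 179.6 in cFos replicates 1 to 3. The groups overlapped, with percentiles of 77.2 ± 8.34 in EYFP and 73.0 ± 4.02 in cFos libraries (SD, n = 3 each). Region 18, from 37978473 to 37979860, scored 151.9, 174.7 and 78.1 in EYFP and 127.7, 157.3 and 177.8 in cFos replicates 1 to 3. It was the only one of the 5 with a higher mean percentile in cFos libraries, 73.8 ± 4.88 against 61.4 ± 18.5 (SD, n = 3 each). EYFP replicate 3, at percentile 40.1, was far below EYFP replicates 1 and 2, at 72.6 and 71.6, which lay among the cFos libraries. Region 21, from 38011506 to 38012590, was the weakest of the 5. It scored 131.5, 161.0 and 108.4 in EYFP and 121.2, 132.8 and 93.1 in cFos replicates 1 to 3, again with overlap.

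The regions called in 5 libraries, numbers 2, 3, 4 and 6, all lay before the gap. Region 2, from 37249284 to 37249931, had scores of 82.3, 109.9 and 134.5 in EYFP replicates 1 to 3, and of 97.8 and 74.6 in cFos replicates 1 and 3. Region 3, from 37302956 to 37304548, was the widest of the window at 1593 bp. It scored 79.4, 152.0 and 69.8 in EYFP replicates 1 to 3 and 57.4 and 101.7 in cFos replicates 1 and 3. Neither was called in cFos replicate 2, the shortest list. In region 3, EYFP replicate 2 had a single peak of 1566 bp and cFos replicate 3 had 2 peaks that summed to 1354 bp, while the other 3 callers had peaks of 373 to 570 bp.

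Region 4, from 37331772 to 37332315, was called in all cFos libraries and in 2 EYFP libraries. It scored 92.4 and 64.3 in EYFP replicates 1 and 2 and 65.4, 64.8 and 101.0 in cFos replicates 1 to 3, and was not called in EYFP replicate 3. Region 6, from 37337903 to 37338611, had scores of 73.0, 106.2 and 235.0 in EYFP replicates 1 to 3 and 65.9 and 144.4 in cFos replicates 1 and 3. In both groups its replicate 3 was the highest, at percentiles 83.5 and 70.3. cFos replicate 2 had no peak in it, but had one of score 58.6 only 28 bp to its left, which made up region 5, from 37337593 to 37337874. With peaks merged across gaps of 200 bp, regions 5 and 6 became 1 and 30% of 20 regions were called in all 6 libraries, against 17% on chromosomes 1 to 19.

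**Figure D4:**
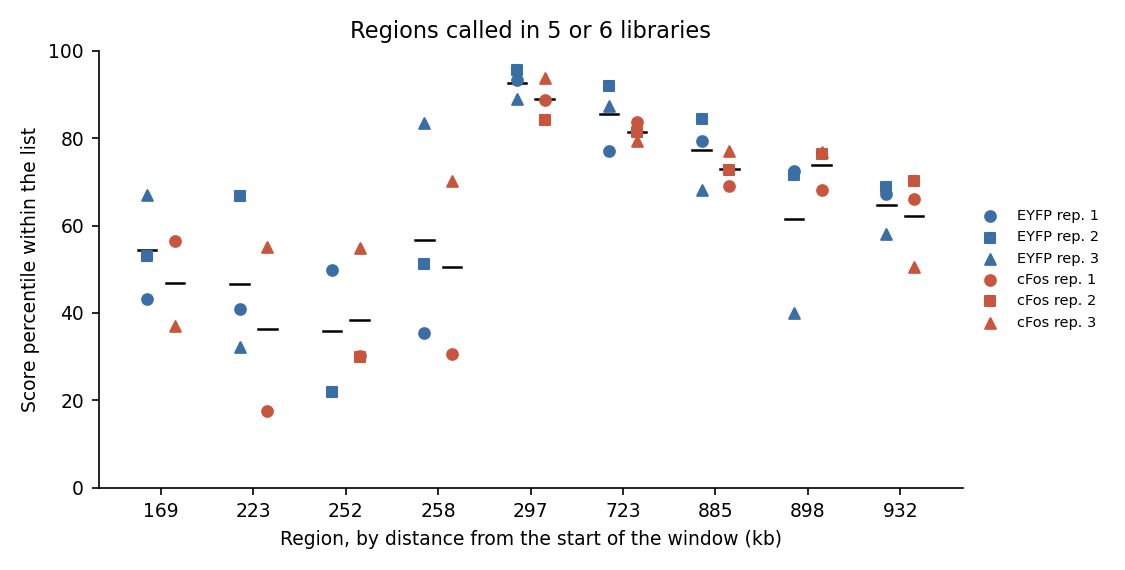
Points give the score percentile of each library in the 9 regions called in 5 or 6 libraries, ordered by distance from the start of the window in kb, with a black line at each group's mean over the libraries that called it. The regions at 297 and 723 kb are highest, and the EYFP and cFos points overlap in all 5 regions called in every library.

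Regions with few calls were mostly weak, as they were on chromosomes 1 to 19. For regions called in 1 library, the median percentile was 24.3 in the window and 18.6 on chromosomes 1 to 19. The 8 regions called in a single library had percentiles from 5.74 to 49.7, and 6 of them came from EYFP and 2 from cFos libraries. On chromosomes 1 to 19, EYFP libraries supplied 58.6% of such regions, from lists that were longer on average. Before the gap these were region 1, from 37112198 to 37112572 in EYFP replicate 1, and region 5. Regions 9, 15 and 20, at 37815178 to 37815687, 37960401 to 37960830 and 38001566 to 38002813, were called in EYFP replicate 2 alone, the longest list. Region 10, from 37901551 to 37901878, came from EYFP replicate 1, region 11, from 37921123 to 37921758, from EYFP replicate 3, and region 12, from 37925468 to 37925803, from cFos replicate 3. The lowest percentile, 5.74, was that of region 12, with a score of 52.2 where the lowest score in any list is 50.

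Region 13, from 37927647 to 37928159, was called in cFos replicates 2 and 3 with scores of 54.0 and 87.7, and in no EYFP library. Region 14, from 37942611 to 37943563, was called in EYFP replicates 2 and 3 with scores of 50.6 and 145.5, and in no cFos library. The 145.5 of EYFP replicate 3 stood at percentile 69.9 of its list, the highest among regions with 3 or fewer calls. Region 17, from 37974667 to 37975551, was called in EYFP replicate 3 (62.8) and cFos replicate 1 (65.7). Region 19, from 37983493 to 37984964, was called in EYFP replicate 3 (69.5) and cFos replicates 1 and 3 (59.4 and 53.7).

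No region of the window was called in every library of one group and in none of the other. The count was 0 of 21 for regions called in 3 of 3 EYFP and 0 of 3 cFos libraries, against 1.96% on chromosomes 1 to 19. It was 0 of 21 for 3 of 3 cFos and 0 of 3 EYFP libraries, against 0.458%. With these backgrounds, 21 regions are too few for a count of 0 to differ from the rest of the genome. Both groups called 11 of the 21 regions, only EYFP libraries called 7 and only cFos libraries called 3, or 52.4%, 33.3% and 14.3%. On chromosomes 1 to 19 the shares were 45.3%, 33.8% and 20.9%, near those of the window.

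The number of peaks in the window overlapped between the groups. EYFP replicates 1 to 3 had 12, 13 and 13 peaks and cFos replicates 1 to 3 had 12, 9 and 14. The means were 12.7 ± 0.577 and 11.7 ± 2.52 (SD, n = 3 each). The exact permutation test, two-sided here and throughout, gave p = 0.8, and cannot go below 0.1 with 3 against 3. Without cFos replicate 2, or on lists of equal length, the cFos mean was not below the EYFP mean. Per 10000 peaks of the list, the window held 4.16, 3.03 and 4.07 peaks in EYFP and 4.65, 3.90 and 4.17 in cFos replicates 1 to 3 (exact permutation p = 0.4). EYFP replicate 2, whose list was the longest, was lowest on this scale, which divides by list length. On lists of equal length both groups averaged 4.62. At the density of each list over chromosomes 1 to 19, a window of this length would hold 8.99 to 16.7 peaks. These expected numbers were 11.2, 16.7 and 12.4 in EYFP and 10.1, 8.99 and 13.1 in cFos replicates 1 to 3. Only EYFP replicate 2, with 13 against 16.7, held fewer peaks than expected by span.

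Peaks in the window were narrower in cFos than in EYFP libraries, as they were in the whole lists. The median width in the window was 603, 858 and 724 bp in EYFP and 488.5, 548 and 552.5 bp in cFos replicates 1 to 3, and the groups did not overlap. The means were 728 ± 128 and 529.7 ± 35.7 bp (SD, n = 3 each), a difference of -199 bp (exact permutation p = 0.1, the lowest this design can give). The medians of the whole lists were 553 to 569 bp in EYFP and 437 to 478 bp in cFos libraries. Set relative to its own list, the median width in the window was 106.0, 152.7 and 130.9% in EYFP and 106.0, 114.6 and 126.4% in cFos replicates 1 to 3. These values overlapped (exact permutation p = 0.4). Peaks covered 7.63, 11.0 and 10.3 kb of the window in EYFP and 6.31, 4.67 and 8.56 kb in cFos replicates 1 to 3 (exact permutation p = 0.2), and cFos replicate 3 covered more than EYFP replicate 1.

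**Figure D5:**
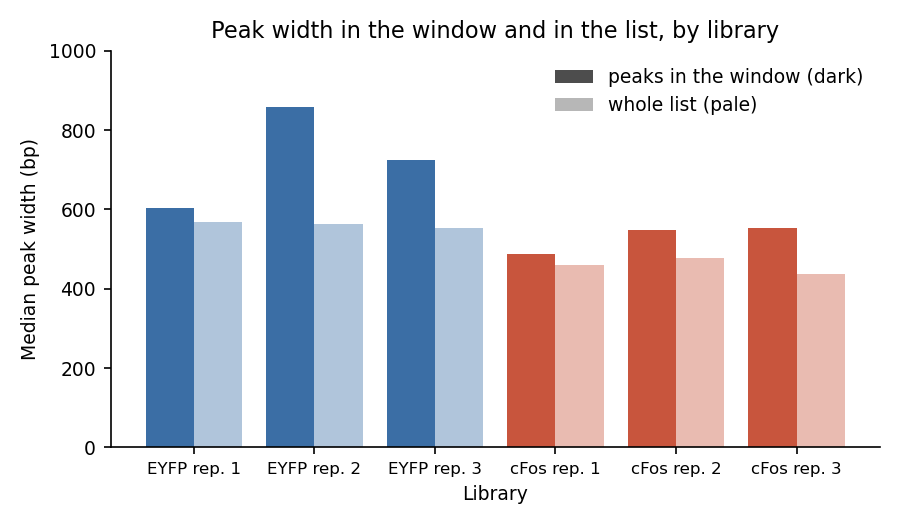
Bars give the median peak width in bp of each library, in the window (dark) and in its whole list on chromosomes 1 to 19 (pale). The EYFP libraries (603 to 858 bp in the window) lie above the cFos libraries (488.5 to 552.5 bp), and the pale bars differ in the same direction.

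The same held within the 5 regions called in all 6 libraries, where a library's peak widths were summed per region. The mean was lower in cFos in 5 of 5, by a median of -194 bp, as it was in 92.5% of the 11379 such regions on chromosomes 1 to 19, whose median was -192 bp. In 3 of the 5, regions 7, 8 and 16, every EYFP library was wider than every cFos library, against 34% on chromosomes 1 to 19. The reverse order occurred in 0 of 5, against 0.299%. Region 7 was 1390, 1428 and 1421 bp wide in EYFP and 1114, 1204 and 1340 bp in cFos replicates 1 to 3. Region 8 was 650, 899 and 807 bp wide in EYFP and 588, 603 and 546 bp in cFos replicates 1 to 3. Region 16 was 1079, 858 and 778 bp wide in EYFP and 505, 548 and 727 bp in cFos replicates 1 to 3. Width can move with read depth, whose part in the result was not tested.

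In this window the score percentiles of the groups overlapped. Of the 73 peaks, 40 lay above the 50th percentile of their list (54.8%) and 4 above the 90th (5.48%), namely region 7 in EYFP replicates 1 and 2 and cFos replicate 3, and region 8 in EYFP replicate 2. The median percentile of a library's peaks in the window was 47.7, 53.0 and 58.2 in EYFP and 51.3, 70.3 and 55.0 in cFos replicates 1 to 3 (exact permutation p = 0.5). cFos replicate 2 was highest and had the fewest peaks, and without it the difference fell from 5.90 to 0.172. In a window 50 kb wider on each side the difference was 7.10 and every cFos library lay above every EYFP library (exact permutation p = 0.1), while in one 50 kb narrower it was -9.79 (exact permutation p = 0.5). Over the 5 regions called in all libraries, the median percentile was 76.5 ± 8.17 in EYFP and 74.2 ± 4.45 in cFos libraries (SD, n = 3 each, with an exact permutation p of 0.8). The direction of both differences changed with the processing. In none of the 5 regions did the groups' percentiles separate. On chromosomes 1 to 19, they separated with EYFP higher in 13.2% and with cFos higher in 1.98% of such regions. The mean percentile was lower in cFos in 4 of the 5 regions, with a median difference of -3.73. Over the 11379 regions it was lower in 73.6%, with a median of -3.21.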

How the data were processed

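The deposited data were 6 peak lists without headers, 1 per library (chromosome, start, end, a name beginning with MACS, and a score), and the score, from 50 to 3100, was used as the authors deposited it. The submitters' processing notes name Bowtie2 and the mm9 build. The caller's version and threshold, duplicate and mitochondrial filters, the Tn5 offset and the treatment of reads that align to several places were not given in the sources used here. This last point matters in an array of similar genes, and its effect was not tested.

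Peaks on chromosomes 1 to 19 were merged where they touched, with the same number of regions from bedtools 2.31.1, and a library was taken to call a region that 1 of its peaks overlapped by 1 bp or more. Percentiles are mid-ranks within a list, and a region takes its highest peak. Densities use the span from the first to the last region of each chromosome. Coordinates are 1-based. Group means were compared by exact permutation tests (two-sided), which enumerate all 20 ways of assigning the libraries, with 0.1 the smallest p. The code was tested on simulated lists. Regions to name were those called in all 6 libraries, those particular to a group, the highest, the widest, and those beside the longest gap; the rest are given because the set is small. The members, lists and tests were chosen with earlier results of these data known. Groups and replicate numbers came from sample titles. No list of genes was tested and no DNA sequence is printed. Python 3.11.15, numpy 2.4.6, pandas 2.3.3 and matplotlib 3.10.9 were used.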

Additional observations from a re-analysis of the deposited data

How the results depend on the processing

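Of 159 values computed under alternative settings for 13 results, 144 were counted as unchanged. For group differences this required only the same sign, whatever the size. For descriptions it required a similar size, a count that stayed 0, or a share inside its binomial interval. That interval, 8.22 to 47.2%, was so wide that all 13 alternative shares, from 9.52 to 40%, were counted as unchanged. A replicate block cannot change a difference, so its values were counted as unchanged in advance. No exact test could reach 0.05. The difference in peak number, cFos minus EYFP, was -1 and became 0 on equal-length lists of 23088 peaks, as did the difference per 10000 peaks, and ranged from -2.17 to 0.333 with each library left out (0.333 without cFos replicate 2). The difference in median percentile (5.90) became -2.67 above the pooled median score and -9.79 in a window 50 kb narrower on each side, and ranged from 0.172 to 9.68 with each library left out. Over regions called in all libraries (-2.33) it became 3.42 on equal-length lists and 2.24 in a window 50 kb wider on each side, and ranged from -3.79 to 1.60 with each library left out. The causes were not tested. Differences in covered sequence and in width kept their sign in all settings run, from -4.14 to -0.400 kb and from -261 to -130 bp. Above the pooled median score, which leaves fewer peaks, there were 12 regions at a median gap of 21.9 kb, and with each library left out the median gap ranged from 9.77 to 19.2 kb. Group-only counts ranged from 0 to 1 in each direction with a library left out. Region 14 counted for EYFP without EYFP replicate 1, and region 13 for cFos without cFos replicate 1. The matching share over chromosomes 1 to 19 was not computed for 2 libraries against 3, so nothing is read from these counts. With the replicate number as a block the width difference was -199 bp (exact permutation p = 0.25, the smallest possible). The deviations of same-numbered libraries had correlations of -0.0150, -0.00736 and 0.00287, which cannot decide whether these libraries shared a batch. Unknown depth limits every missing call.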
